A study of Mus musculus with 67 samples.

Results

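The genes described here are 75 genes whose transcripts were higher at 1d than in NB in libraries of retinal pigment epithelium (RPE) and stood at 1d above their level in neural retina. They were chosen among the 15108 Ensembl identifiers present in both the RPE and the retina table by 3 criteria and so selected on measured values. The RPE group mean of log2(CPM + 0.5) at 1d exceeded that of NB by at least 0.7, the mean RPE CPM at 1d was at least 3, and that mean was above the mean retina CPM at 1d. CPM is the read count of a gene scaled to a common effective library size, and the 0.5 is added so that a level of 0 has a logarithm. Of the 87 genes that met all 3, 12 were left out by name (members of a list of 18 genes, among them Lcn2, C3 and Socs3). Without the retina criterion 336 genes met the other 2, and in 249 of them the retina mean was at or above the RPE mean. The values that chose the members are those of RPE NB, RPE 1d and retina 1d, so differences between these groups are given as descriptions without a test.

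The mice are labelled Abca4-/- Rdh8-/- on C57BL/6J, and the labels call them photosensitive. Reads of both target genes were in every library, with Abca4 at 153 to 304 CPM in RPE and 357 to 928 in retina and Rdh8 at 2.43 to 9.10 CPM in RPE and 29.5 to 49.0 in retina. The tables count reads over whole genes, so these levels do not check a deletion of part of a gene. All groups share this genotype, and no group of another genotype was analysed here. RNA came from RPE (5 mice in NB, 3 at 6h, 4 at 1d and 4 at 3d) and from retina (6 in NB, 3 at 6h, 4 at 1d and 4 at 3d). The labels do not expand NB, which is taken as the reference here, and give neither the zero point of the times nor the age of the mice. A library holds both eyes of 1 mouse, and the RPE was shaken off the opened eyecup into a stabilising solution after the cornea, iris and lens had been cut away.

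The RPE is a pigmented monolayer between photoreceptors and choroid. It takes up shed outer segments, regenerates the visual chromophore, carries ions, iron and nutrients across the outer blood-retina barrier and stores lipid in droplets. Products of Abca4 and Rdh8 clear retinaldehyde from outer segments, and without them bisretinoids build up in the RPE and bright light injures the outer retina. The corneal and conjunctival epithelium at the front of the eye is another cell layer with its own keratins, among which Krt12 is the keratin of corneal epithelium.

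The RPE label was checked against marker genes. RPE identity genes were present (18 of 18 listed genes in the table), with a summed level of 17250 to 29577 CPM in NB, 10945 to 15551 at 6h, 9528 to 14131 at 1d and 18184 to 32536 at 3d. Markers of the ocular surface epithelium were also read in every RPE library (19 of 20 listed genes in the table, none of them at 0 in any RPE library), and their sum spanned 25355 to 69391 CPM in NB, 33824 to 52247 at 6h, 38457 to 77865 at 1d and 16693 to 43486 at 3d. Krt5, a basal epithelial keratin, ranked 3 in reads over all genes of the RPE libraries and Krt12 ranked 9, against 44 for Rpe65, the isomerase of the visual cycle. In retina 9 of the 20 surface markers were in the table and summed to 10.3 to 31.5 CPM. Marker transcripts of both epithelia were thus read in the RPE libraries. The 75 genes are accordingly described as genes of these libraries, not of RPE cells, and in such bulk samples fewer cells of a type and less RNA per cell cannot be told apart.

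Single libraries stood apart in these sums. RPE 1d library 4 had the highest surface sum (77865 CPM), but that sum holds the members Krt12 and Dsg1a, and without them NB library B3 was highest (65183 against 60969). RPE 3d library 2 had the lowest surface sum (16693) and the highest RPE identity sum (32536), and RPE 3d library 1 the lowest RPE identity sum of its group (18184). Without RPE 1d library 4 the rule found 59 genes, 46 of them among the 75. Without RPE 1d library 3, which had the lowest RPE identity sum of all 16 libraries (9528), it found 115, with 72 of the 75. Leaving out each of the 9 RPE NB and 1d libraries in turn kept 35 of the 75 in every case. Depth fell into a deeper set (all 6h libraries and NB library A1 in RPE, 23.1 to 26.8 M reads) and a shallower set (the other 12, 11.5 to 14.4 M). In retina the deeper set held 22.6 to 32.4 M reads and the shallower 9.45 to 15.2 M.

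Promoter sequences are shown for 3 members that recur below, because Krt12 and Aqp5 varied together from library to library while Npl did not follow them. Each is the 250 bases before the RefSeq start on GRCm38.p6, printed 5′ to 3′ on the gene's strand. The capitals mark a TATA box (TATAAA) in Krt12, at chr11:99422260-99422509 on the minus strand, and an E-box (CACGTG) in Aqp5, at chr15:99590778-99591027 on the plus strand, and in Npl, at chr1:153549715-153549964 on the minus strand.
Krt12: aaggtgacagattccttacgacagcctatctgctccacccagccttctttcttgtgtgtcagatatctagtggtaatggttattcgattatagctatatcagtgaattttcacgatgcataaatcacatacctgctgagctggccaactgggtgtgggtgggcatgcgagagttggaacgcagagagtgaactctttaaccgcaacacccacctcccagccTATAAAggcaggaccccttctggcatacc
Aqp5: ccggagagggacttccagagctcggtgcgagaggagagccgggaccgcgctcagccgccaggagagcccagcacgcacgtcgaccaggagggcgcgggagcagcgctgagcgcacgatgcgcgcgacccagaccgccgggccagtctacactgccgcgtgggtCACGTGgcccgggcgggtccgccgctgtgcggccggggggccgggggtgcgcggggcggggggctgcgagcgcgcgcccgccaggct
Npl: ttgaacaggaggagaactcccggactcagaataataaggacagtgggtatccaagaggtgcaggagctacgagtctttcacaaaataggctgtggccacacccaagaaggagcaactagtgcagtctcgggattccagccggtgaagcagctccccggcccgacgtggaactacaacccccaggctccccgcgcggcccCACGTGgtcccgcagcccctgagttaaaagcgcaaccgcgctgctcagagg
The TATA match of Krt12 begins at base -29 from the start, and the E-box begins at -87 in Aqp5 and at -51 in Npl.

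The 49 members with a RefSeq promoter entry were searched on both strands over the 250 bases before the start. Of these members, 7 held TATAAA (14.3%, against 13.0% of all 27025 promoters). The E-box CACGTG was in 4 (8.16%, against 6.05%): Aqp5, Npl, Ldhd and Ppp1r3c. The AP-1 motif TGANTCA was also in 4 (8.16%, against 6.87%). The STAT motif TTCNNNGAA was in 2 (4.08%, against 7.18%) and the C/EBP motif TTGCNNAA in 2 (4.08%, against 9.55%). These counts are small, and a match describes letters, not a bound site.

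Over the 75 members the log2 difference of 1d from NB in RPE ran from 0.70 to 2.79 with a median of 0.93, and 32 members reached 1. Mean RPE levels at 1d had a median of 20.7 CPM; 16 members were over 100 CPM and 20 under 10. At 1d the RPE mean exceeded the retina mean by a median of 3.86-fold, from 1.04-fold for Chadl, a chondroadherin-like matrix gene, to 2856-fold for Krt12. It was over 10-fold in 17 members and under 2-fold in 26, and in 18 members the retina NB mean was above the RPE NB mean. In 33 members all 4 libraries at 1d were above all 5 NB libraries. The share of all tested RPE genes with such a separation was 3.14%, and since the rule used these groups nothing is read from the count.

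Members just inside and outside the thresholds had nearly equal values. Atg9b, an autophagy gene, was inside at a log2 difference of 0.70 (0.701), and Eda and Loxl4 stood at 0.71, while Sdf2l1, Map6d1 and Tspan4 were outside at 0.697, 0.695 and 0.692. Egfl6 and Rbp4 were inside the level criterion at 3.07 and 3.16 CPM, and Xlr4a was outside at 2.67. Chadl, Gna14 and Dcdc5 were inside the retina criterion at 1.04-fold, 1.16-fold and 1.18-fold, and Cd44, Mxra7 and Esr1 were outside at 0.947-fold, 0.942-fold and 0.924-fold.

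**Figure D1:**
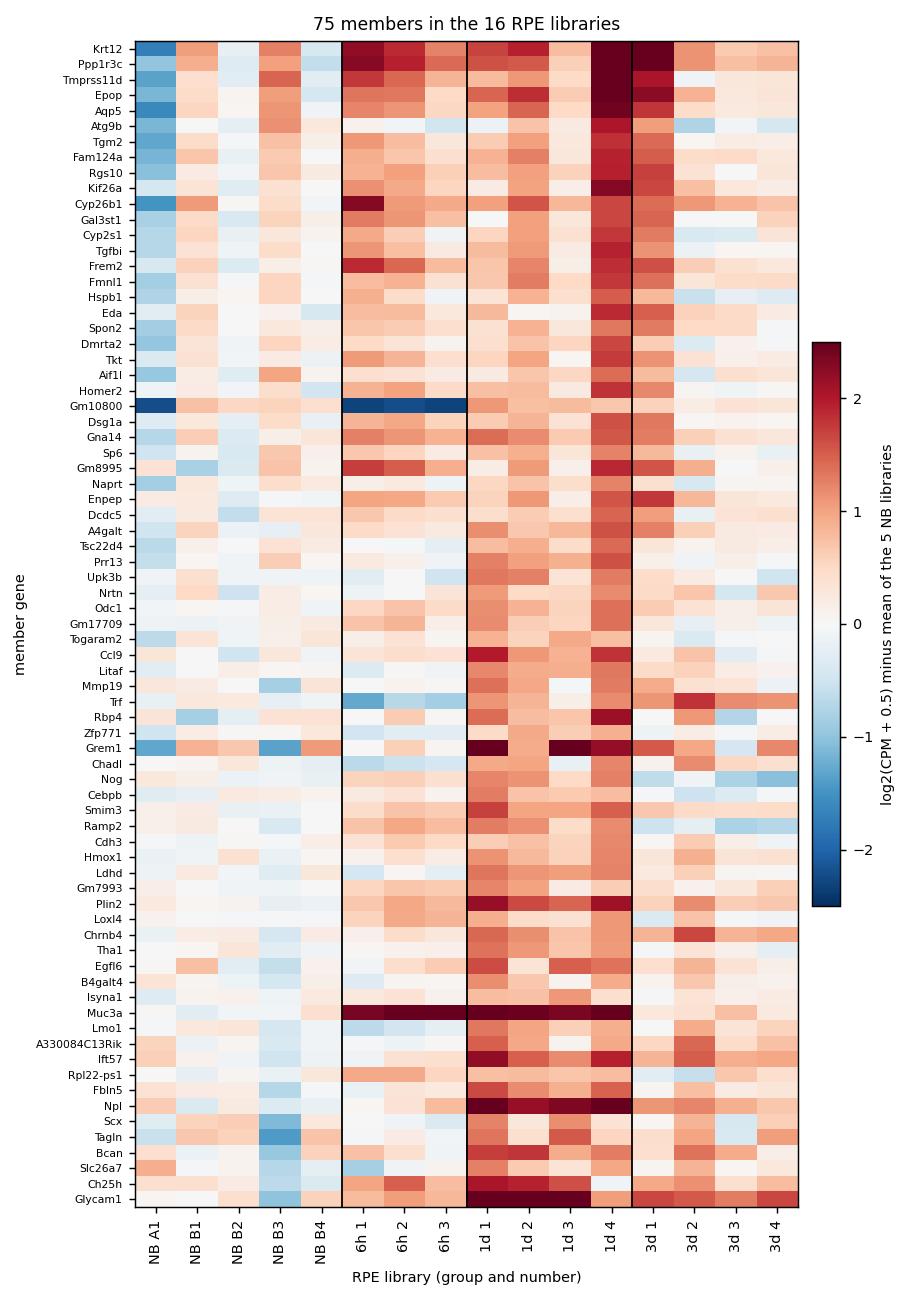
Level of each of the 75 members (rows) in the 16 RPE libraries (columns, in the groups NB, 6h, 1d and 3d), as log2(CPM + 0.5) minus the mean of the 5 NB libraries, with the colour scale ending at 2.5. Members are ordered from those whose 1d difference shrank most when the Krt12 level entered the fit (top) to those whose difference grew (bottom). The upper members are also high in 3d library 1 and low in NB library A1. The lower ones are mixed: Npl and Fbln5 are high mainly at 1d, Muc3a and Ch25h also at 6h, and Chrnb4 also at 3d.

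The members with the widest difference at 1d in RPE included secreted, mucin and enzyme genes at low to moderate levels. Muc3a, a transmembrane mucin gene of epithelia, read 0.123, 0, 0.0784, 0.0776 and 0.307 CPM in NB and 6.63, 2.82, 2.62 and 3.73 CPM at 1d (log2 difference 2.79 ± 0.23 SE). The 2 groups did not overlap, and the NB values correspond to a few reads per library. Glycam1, a secreted mucin-like glycoprotein gene, read 12.9, 12.2 and 13.2 CPM in 1d libraries 1 to 3 but 2.22 CPM in library 4, against 0.155 to 1.46 in NB (2.76 ± 0.41). Library 4 was low among the 1d libraries, and all 4 still lay above NB.

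Npl, the N-acetylneuraminate lyase that splits sialic acid, read 52.5, 31.2, 34.7 and 48.3 CPM at 1d against 10.4, 4.95, 7.69, 5.05 and 5.68 in NB (log2 difference 2.56 ± 0.22). The lowest 1d library (31.2) was well above the highest NB library (10.4). Plin2, the coat protein of cytoplasmic lipid droplets, read 273, 189, 165 and 263 CPM at 1d against 51.9 to 70.8 in NB (1.85 ± 0.16). Ift57, an intraflagellar transport subunit of cilia, read 114, 69.0, 55.8 and 94.1 CPM at 1d against 16.9 to 36.7 in NB (1.71 ± 0.23). Neither gene's 1d group overlapped NB. Grem1, a secreted antagonist of bone morphogenetic proteins (BMPs), was uneven, with 15.6, 4.10, 23.7 and 10.6 CPM at 1d and 0.492, 3.93, 3.37, 0.466 and 4.61 in NB, so that the groups overlapped (2.29 ± 0.58).

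Ccl9, a chemokine gene, had 10.96, 5.64, 4.79 and 9.60 CPM at 1d against 1.57 to 3.07 in NB. Bcan, the chondroitin sulfate proteoglycan brevican, had 12.5, 13.1, 7.02 and 9.04 CPM against 1.55 to 5.37. Ch25h, which makes 25-hydroxycholesterol, had 13.9, 12.7 and 10.1 CPM in 3 of the 1d libraries. In 1d library 4 it read 2.78 CPM, inside the NB range of 1.71 to 4.10. Ch25h and Glycam1 were thus both lowest in the same 1d library.

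Of the 8 members with the most reads at 1d, Krt12 is the only one on the list of surface epithelium markers, and its libraries spread widely. It read 513, 3482, 1468, 4034 and 1279 CPM in NB, 7844, 6100 and 4001 at 6h, 5452, 6487, 2858 and 16516 at 1d, and 10744, 3650, 2639 and 2791 at 3d. The 1d mean of 7828 ± 5990 CPM (SD, n = 4) therefore leans on library 4, and library 3 lay within the NB range. Aqp5, a water channel of corneal epithelium and glands, followed the same order at its extremes, with 239 CPM in NB library A1, 3920 in 1d library 4 and 2530 in 3d library 1. Its 1d group overlapped NB (1040 to 3920 against 239 to 1583 CPM).

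Tkt, the transketolase of the pentose phosphate pathway, averaged 1375 ± 714 CPM at 1d (n = 4) and 715 ± 150 in NB (n = 5). Tgm2, a transglutaminase, averaged 609 ± 303 against 323 ± 138 CPM, and Tgfbi, a matrix protein abundant in the cornea, 425 ± 222 against 201 ± 58.8. Hspb1, a small heat shock protein, averaged 333 ± 135 against 191 ± 56.3 CPM, and Dsg1a, a desmosomal cadherin of stratified epithelia, 242 ± 95.9 against 130 ± 32.0. In all 6 of these genes, Aqp5 included, the groups overlapped, and library 4 was the highest of the 1d group. Prr13, by contrast, read 326, 274, 249 and 408 CPM at 1d against 89.2 to 206 in NB and did not overlap.

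**Figure D2:**
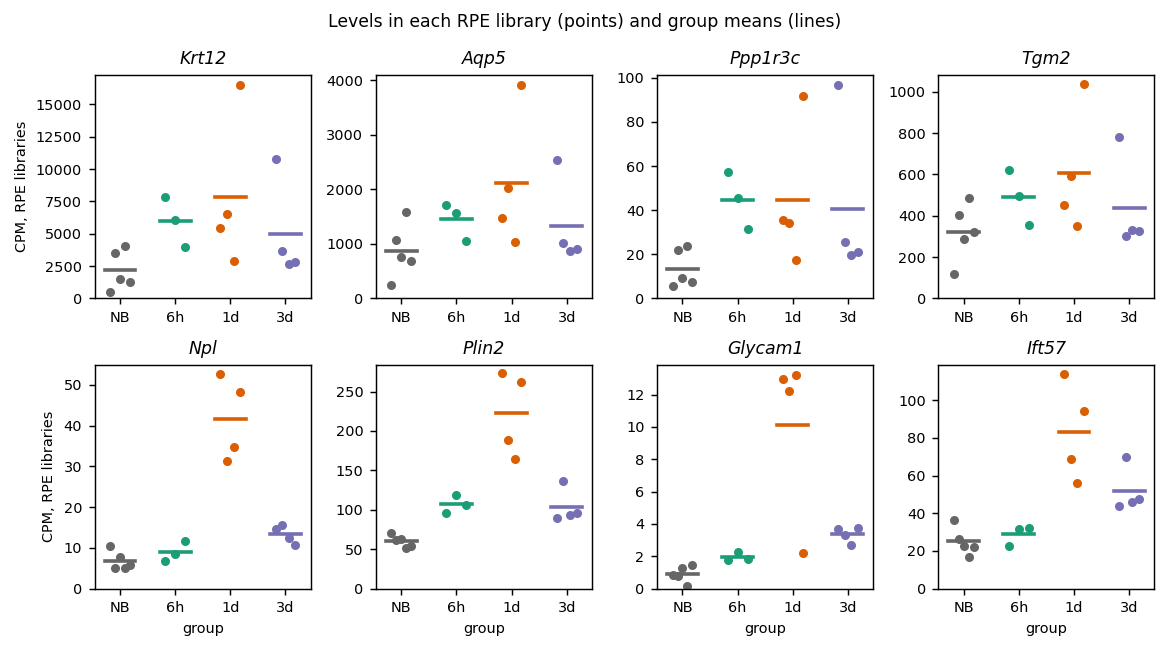
CPM of 8 members in each RPE library (points) with the group mean (line), with 5 points in NB, 3 at 6h and 4 each at 1d and 3d; each vertical axis starts at 0. Krt12, Aqp5, Ppp1r3c and Tgm2 (upper panels) overlap between NB and 1d and are led by 1 library at 1d and 1 at 3d, whereas Npl, Plin2, Glycam1 and Ift57 (lower panels) have every 1d library above every NB library.

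The RPE identity sum was lower in every 1d library than in every NB library. The surface sum without members overlapped between these groups (24740 to 65183 CPM in NB, 32809 to 60969 at 1d). The 1d difference of each member was also fitted with a marker level as a term (chosen after the values had been seen). With the summed surface markers that are not members, 66 of 75 members kept a log2 difference of at least 0.7. With the summed RPE identity markers 43 did, and with the Krt12 level 33 did, itself a member; 30 members reached 0.7 under all 3. The Krt12 term took 33 members below 50% of their difference, among them Krt12, whose own difference is 0 in that fit by construction. The RPE identity term took 22 and the surface sum none (0). These fits reuse the values that chose the members, and the RPE identity sum did not overlap between NB and 1d. They are a description, and the part of either epithelium in the 1d differences was not tested.

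Among the members that lost most with the Krt12 term, Aqp5 went from 1.35 to -0.18, Ppp1r3c, a glycogen-targeting subunit of protein phosphatase 1, from 1.67 to -0.02, and Epop, a Polycomb-associated factor, from 1.72 to 0.15. Tmprss11d, an airway-type serine protease, went from 1.27 to -0.40, Tgm2 from 0.93 to -0.29, Tkt from 0.83 to 0.01 and Cyp26b1, which degrades retinoic acid, from 1.27 to 0.21. Others kept or widened theirs. Glycam1 went from 2.76 to 3.48, Npl from 2.56 to 2.77, Ift57 from 1.71 to 1.88 and Ch25h from 1.37 to 1.82. Plin2 stayed at 1.86 against 1.85.

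**Figure D3:**
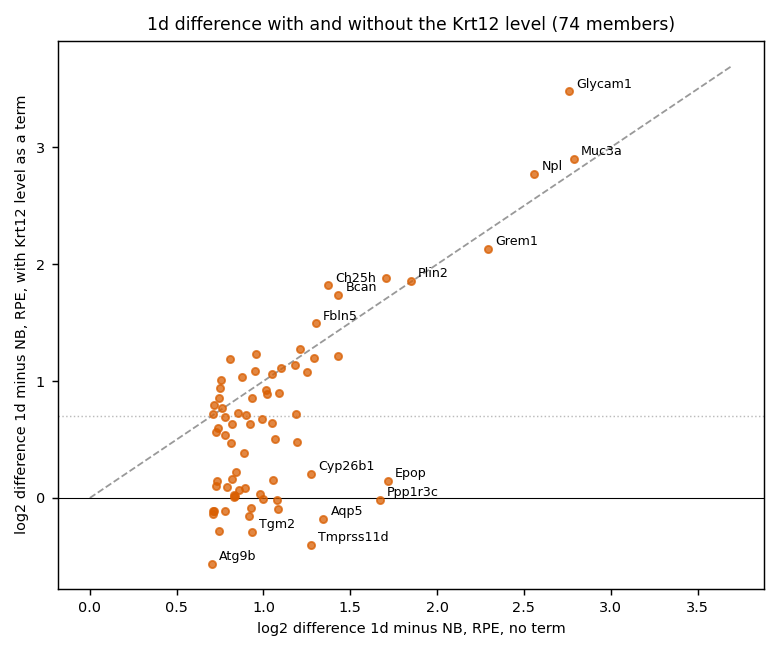
Log2 difference of 1d minus NB in RPE for 74 members (Krt12 left out), fitted without (horizontal axis) and with (vertical axis) the Krt12 level of each library as a term; the dashed line marks equal values and the dotted line 0.7. Aqp5, Ppp1r3c, Epop and Tmprss11d fall to near or below 0, and Glycam1, Muc3a, Npl, Grem1 and Plin2 stay near or above the dashed line.

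On the lists of matrix proteins and matrix proteases the members were Fbln5, Tgfbi, Loxl4 and the protease gene Mmp19. Fbln5, a protein of elastic fibres, read 232, 168, 137 and 205 CPM at 1d against 95.2, 84.9, 84.2, 44.6 and 71.1 in NB, without overlap. Loxl4, a lysyl oxidase that cross-links collagen and elastin, read 38.2, 27.6, 26.2 and 42.7 CPM at 1d against 19.2 to 21.5 in NB, and 6h was as high (34.9 ± 4.67 CPM, n = 3). Mmp19, a matrix metalloproteinase, averaged 5.66 ± 2.29 CPM at 1d and 2.71 ± 0.875 in NB, with overlap.

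Of the genes of redox and metal handling, Hmox1, the inducible heme oxygenase, read 39.8, 31.8, 27.0 and 42.7 CPM at 1d against 15.9 to 23.4 in NB, with no overlap. Trf, the iron carrier transferrin, read 470, 393, 242 and 494 CPM at 1d against 193, 261, 259, 190 and 202, and library 3 lay inside the NB range. Of the retinoid genes, Cyp26b1 averaged 20.6 ± 5.83 CPM at 1d against 9.34 ± 5.42 in NB, and Rbp4, the serum retinol carrier, 3.16 ± 1.82 against 0.979 ± 0.462. Cdh3, the P-cadherin of RPE and basal epithelia, read 131, 142, 126 and 196 CPM at 1d against 77.9 to 96.0, without overlap.

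Among signalling genes, Nog, which codes for the BMP antagonist noggin, read 50.6, 47.2, 30.5 and 51.9 CPM at 1d against 18.8 to 26.0 in NB. Ramp2, which pairs with the calcitonin-like receptor to form an adrenomedullin receptor, read 54.4, 49.4, 30.9 and 51.2 CPM against 17.1 to 26.2. Neither overlapped NB. Chrnb4, a nicotinic acetylcholine receptor subunit, averaged 68.2 ± 13.5 CPM at 1d against 31.6 ± 5.92, and Lmo1, a LIM-domain transcription cofactor, 64.7 ± 13.6 against 33.2 ± 6.61. Tagln, a smooth muscle and pericyte marker, averaged 93.6 ± 35.9 against 52.4 ± 26.8 with overlap, while the summed pericyte and smooth muscle markers ranged from 580 to 1177 CPM at 1d and from 460 to 1048 in NB.

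At 6h in RPE the members stood at a median of 46.1% of their 1d log2 difference, and 61 of 75 had a mean above NB. In 36 the 6h mean had over 50% of the 1d difference, and in 27 it had 25% of it or less. In 24 members the 6h libraries were all above NB (6.7% of all tested RPE genes were), and in 3 all below (5.98%); the rule used the NB values, so nothing is read from these counts. Muc3a was already at 2.67, 3.79 and 3.60 CPM, 95.1% of its 1d log2 difference. Npl stood at 15.7%, Grem1 at 9.82%, Fbln5 at 10.5% and Prr13 at 7.81%. The highest group mean was at 1d in 65 members, at 6h in 9 (Ppp1r3c, Cyp26b1 and Loxl4 among them) and at 3d in 1, Trf; the rule favours 1d, so the order is a description.

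At 3d the members stood at a median of 41.5% of their 1d log2 difference, with 69 means above NB and 29 members over 50%. In 8 members the 3d libraries were all above NB (2.48% of all tested RPE genes): Glycam1, Npl, Plin2, Ift57, Smim3, Chrnb4, Enpep and Trf. In 21 the 3d libraries were all below those of 1d (6.43% of all). The rule used NB and 1d, so nothing is read from either count. Nog and Ramp2 had 3d means of 14.1 ± 4.37 and 15.0 ± 2.76 CPM, under their NB means of 21.6 ± 3.14 and 22.5 ± 3.43. Chrnb4 was at 68.7 ± 21.5 CPM, close to its 1d mean.

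The comparison of RPE 3d with 6h uses libraries that did not choose the members, and was tested with limma over 16712 genes. Of the 75 members, 2 were called higher at 3d (0.64% of all genes were) and 3 lower (0.233%), while 70 did not pass; the median difference was -0.08 against -0.03 over all genes. Trf read 90.2, 135 and 121 CPM at 6h and 467, 762, 497 and 480 at 3d, and rose by a log2 difference of 2.24 ± 0.24 (limma adjusted p = 0.000628). Muc3a read 2.67, 3.79 and 3.60 CPM at 6h and 0.231, 0.293, 0.521 and 0.223 at 3d, and fell by 2.24 ± 0.26 on the log2 scale (limma adjusted p = 0.000946). In both genes every library of one group was above every library of the other.

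Ramp2 read 37.0, 43.8 and 38.4 CPM at 6h and 15.3, 18.8, 12.7 and 13.3 at 3d, and fell by 1.38 ± 0.19 (limma adjusted p = 0.00371). Nog read 32.0, 32.6 and 28.6 CPM at 6h and 13.7, 20.3, 12.3 and 10.2 at 3d, and fell by 1.15 ± 0.21 (limma adjusted p = 0.0234). The call of Nog was lost without any 1 of 6h libraries 1, 2 and 3 or 3d libraries 3 and 4 (adjusted p = 0.0595 to 0.167) and in a fit of the 2 groups alone (adjusted p = 0.0921). The other call, of a predicted gene, rests on its reads being at or near 0 in the 3 libraries of 6h and in NB library A1, the 4 deeper ones, and 2.34 to 4.81 CPM in the other 12. The 6h libraries are all of the deeper set and the 3d libraries all of the shallower. With the set as a term, which rests on NB library A1, no member passed in limma (0 higher, 0 lower, 25 at an unadjusted p under 0.05) and the adjusted p was 0.0962 for Trf, 0.102 for Muc3a, 0.144 for Ramp2 and 0.245 for Nog, with log2 differences of 2.02, -2.20, -1.22 and -0.81; time and depth set cannot be told apart here. Without 3d library 1 the higher calls numbered 4, and without any other library of the 2 groups 1.

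The same difference was fitted with each marker level as a term. With the RPE identity sum Trf rose by 1.63 and Ramp2 fell by 1.88, and with the surface epithelium sum Trf rose by 2.11 and Ramp2 fell by 1.53. All 4 named genes passed the threshold under each of the 3 terms (highest limma adjusted p = 0.0280, for Nog with the Krt12 term).

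For the wider pathways in RPE at 3d against 6h, 5 of 39 matrix protein genes were higher and 0 lower, as were 3 of 29 matrix proteases and inhibitors, beside 0.64% of all genes higher and 0.233% lower. Of metal-handling genes 1 of 13 was higher (Trf), and of 34 Wnt, BMP, TGF-beta and Hippo genes 1 was lower (Nog). With the depth set as a term 1 matrix protein gene passed and 0 of the other 3 lists, with 7 calls among all genes. Microglia and macrophage markers were also higher (5 of 18, summed level 280 to 325 CPM at 6h and 425 to 513 at 3d). With the depth set as a term 0 of these markers passed, and their part in the calls above was not tested. None of 33 redox genes, 18 retinoid cycle genes, 18 heat shock genes and 19 surface epithelium markers passed in limma (0 in either direction) or in edgeR. At an unadjusted p under 0.05 in limma there were 6, 8, 2 and 0 of them, and DESeq2 called 4, 5, 1 and 0. The list medians were 0.03, 0.47, -0.01 and -0.48, against -0.03 over all genes.

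In retina the NB, 6h and 3d groups had no part in the choice of the members. At 6h against NB 20 members were called higher (16.9% of 16926 genes were), 4 lower (18.5%) and 51 did not pass; the members' median was 0.24 and that of all genes 0.00. Hmox1 read 23.7, 35.1 and 39.1 CPM at 6h, and in NB its lowest, median and highest libraries were 2.38, 3.74 and 3.98. It rose by a log2 difference of 3.03 ± 0.19 (limma adjusted p = 5.85e-10). Tgm2 read 35.8, 44.8 and 43.7 CPM at 6h against 7.94, 10.3 and 11.2 in NB (lowest, median, highest), a rise of 2.03 ± 0.12 (limma adjusted p = 1.85e-10). The range of retinal Hmox1 at 6h thus overlapped that of the RPE libraries at 1d, and that of Tgm2 did not.

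Cdh3 rose in retina at 6h from 2.69 ± 0.724 (n = 6) to 15.0 ± 1.94 CPM (n = 3), by 2.30 ± 0.19 (limma adjusted p = 3.13e-08). Gna14, a G protein alpha subunit of the Gq class, rose from 2.68 ± 0.319 to 7.22 ± 0.0436 CPM, by 1.28 ± 0.12 (limma adjusted p = 2.22e-07). Loxl4 (2.28 ± 0.22), Nog (1.70 ± 0.21), Ch25h (1.60 ± 0.24), Fbln5 (1.39 ± 0.23) and Plin2 (1.09 ± 0.14) were also higher. Sp6, a zinc finger transcription factor, fell from 22.8 ± 1.38 to 13.1 ± 1.76 CPM, by 0.78 ± 0.09 on the log2 scale (limma adjusted p = 2.10e-06), and Aif1l, an actin-bundling protein, by 0.40 ± 0.10 (limma adjusted p = 0.00514), a call lost with the NB libraries of the same depth set alone (adjusted p = 0.0895). Krt12, at 0.535 to 2.65 CPM in NB and 1.096 to 6.04 at 6h, did not pass.

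At 3d against NB in retina 37 members were called higher (19.3% of all genes), 2 lower (23.9%) and 36 did not pass, with a median of 0.29 against -0.02 over all genes. Both retinal comparisons use the same 6 NB libraries. Gna14 read 14.7, 11.3, 12.2 and 12.7 CPM at 3d, all above its highest NB library of 3.32, and rose by 2.05 ± 0.11 (limma adjusted p = 1.86e-10). Trf read 19.8, 24.1, 26.8 and 24.9 CPM against an NB lowest of 3.82, median of 7.19 and highest of 8.45, a rise of 1.81 ± 0.17 (limma adjusted p = 2.49e-07). Neither group overlapped NB.

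Tgm2 was higher at 3d by 1.37 ± 0.11 (limma adjusted p = 1.59e-08) and Tsc22d4, a leucine zipper protein of the TSC22 family, by 1.00 ± 0.09 (limma adjusted p = 5.13e-08). Among the other members with calls, Glycam1 read 3.96, 2.58, 4.22 and 4.90 CPM against 0.199 to 1.41 in NB, and rose by 1.78 ± 0.43 (limma adjusted p = 0.00256). Sp6 fell by 0.63 ± 0.08 (limma adjusted p = 8.38e-06) and Lmo1 by 0.18 ± 0.06 (limma adjusted p = 0.0235). Scaling to library totals, in place of the authors' effective sizes, shifted the median of all genes by 0.15 and gave 47 higher and 1 lower member, with Lmo1 not past. The call of Lmo1 was also lost with DESeq2 (adjusted p = 0.111) and in limma without 3d library 1 or 4 (adjusted p = 0.0873 and 0.0607).

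**Figure D4:**
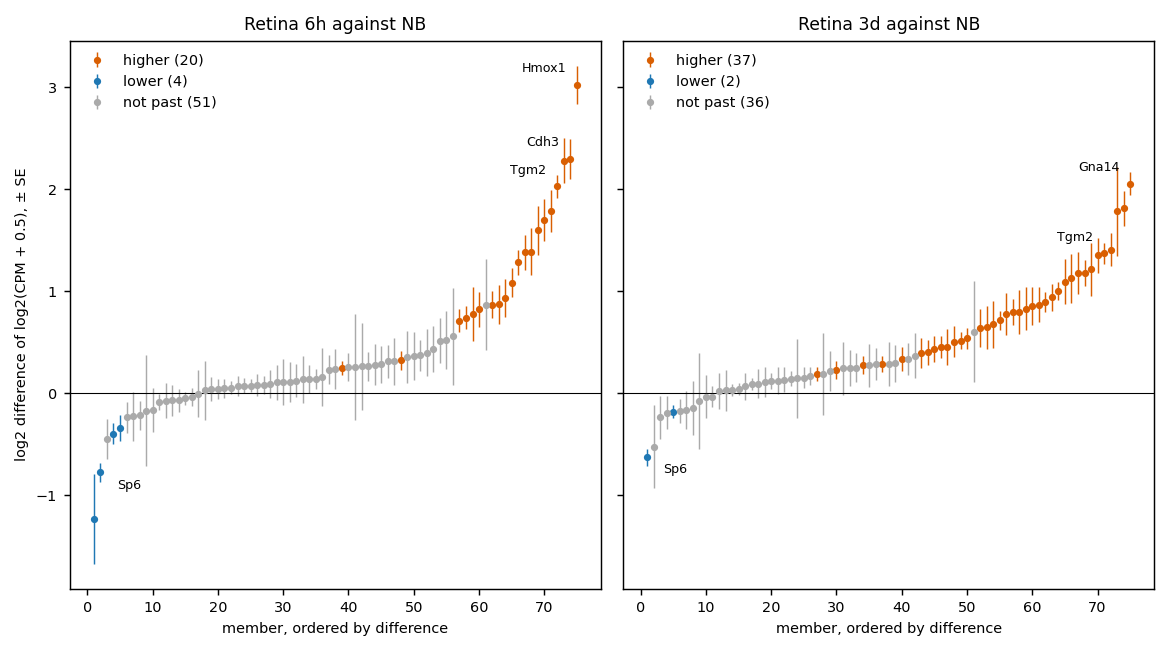
Log2 difference from NB with its SE for the 75 members in retina at 6h (left) and 3d (right), each panel ordered by its own difference; colours mark members called higher, lower or not past an adjusted p of 0.05 in limma. At 6h 20 are higher with Hmox1 at the top (3.03), and at 3d 37 are higher with Gna14 at the top (2.05).

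Other cell types moved in the retina as well. The summed microglia and macrophage markers were 43.9 to 63.1 CPM in NB, 55.0 to 65.9 at 6h and 208 to 249.8 at 3d, and 15 of its 16 tested markers were called higher at 3d. Rod markers summed to 68304 to 76435 CPM in NB, 40562 to 49251 at 6h and 36115 to 41912 at 3d, with 11 of 12 called lower at 3d. The RPE identity sum in retina was 1137 to 1410 CPM in NB and 1408 to 1693 at 6h. Of its 17 tested markers 9, Cdh3 among them, were called higher at 6h and 2 lower. Of all genes 16.9% were called higher and 18.5% lower at 6h, and 19.3% and 23.9% at 3d. The part of these cell types in the retinal calls was not tested.

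Of the wider pathways in retina at 3d, to be read beside 19.3% of all genes higher and 23.9% lower, 17 of 37 matrix protein genes were higher and 2 lower, as were 8 and 1 of 13 metal-handling genes. Of 30 redox genes 13 were higher and 1 lower, and of 27 fatty acid and lipoprotein genes 10 were higher and 8 lower. Of 18 heat shock genes 3 were higher and 6 lower, and Hspb1 did not pass (3.87 ± 0.684 CPM at 3d against 3.54 ± 0.561 in NB).

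Whether the change from 6h to 3d differed between the tissues was tested over 15108 genes in 1 fit of both. For 6 members it was higher in RPE (4.85% of all genes), for 3 lower (1.46%), and 66 did not pass. Hmox1 went from 21.4 to 25.5 CPM in RPE and from 32.6 to 9.70 CPM in retina, a difference of 1.91 ± 0.29 (limma adjusted p = 8.34e-05). Cdh3 had means of 121 and 98.7 CPM in RPE and of 15.0 and 3.87 CPM in retina, a difference of 1.53 ± 0.28 (limma adjusted p = 0.000681). Cdh3 is on the RPE identity list, of which 8 of 17 tested genes were called higher in RPE and 0 lower. The median of that list was 1.16, against -0.01 over all genes. Lmo1 (1.33 ± 0.23, limma adjusted p = 0.000422), Chrnb4 (1.33 ± 0.26, limma adjusted p = 0.00162) and Trf (1.302 ± 0.33, limma adjusted p = 0.0140) were likewise higher in RPE. Without RPE 6h library 1 Trf did not pass (adjusted p = 0.0588).

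Muc3a showed the widest difference in the lower direction among the members, since its RPE level dropped from 3.36 ± 0.600 to 0.317 ± 0.140 CPM while retina stood at 2.39 ± 0.335 and 1.94 ± 0.253 CPM (-1.99 ± 0.30, limma adjusted p = 7.32e-05). Ramp2 differed by -1.21 ± 0.23 (limma adjusted p = 0.000951), with retinal means of 7.59 ± 1.39 CPM at 6h and 6.61 ± 0.346 at 3d. Gna14 differed by -1.22 ± 0.34 (limma adjusted p = 0.0251). Its call was lost without any 1 of RPE 6h library 1, RPE 3d libraries 3 and 4, the 3 retina 6h libraries and retina 3d library 1 (highest adjusted p = 0.0775). In both tissues 6h is of the deeper set and 3d of the shallower. With the set as a term Hmox1, Chrnb4 and Ramp2 no longer passed (adjusted p = 0.0611, 0.0948 and 0.131), and the lower calls numbered 5.

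**Figure D5:**
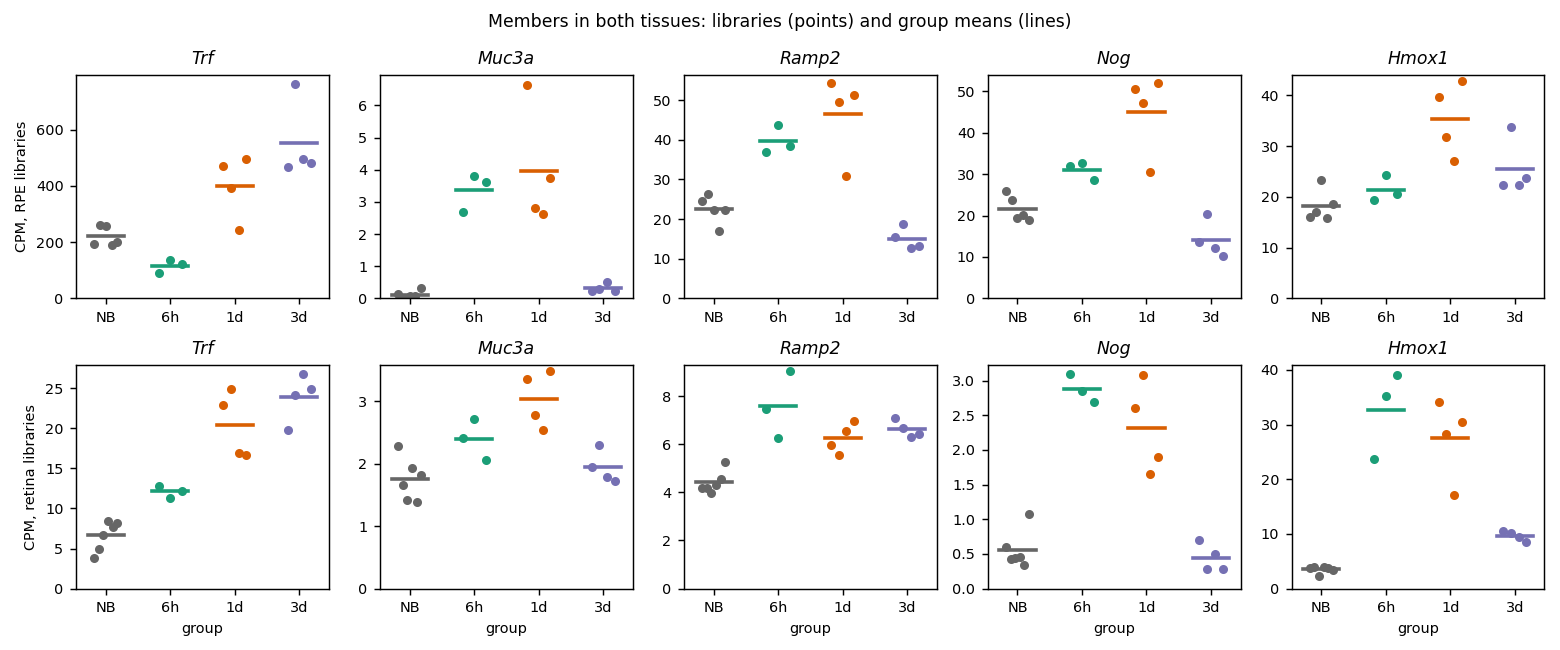
CPM of Trf, Muc3a, Ramp2, Nog and Hmox1 in RPE (upper panels) and retina (lower panels), with libraries as points and group means as lines; each vertical axis starts at 0 and differs between panels. In RPE Trf is lowest at 6h and highest at 3d, Muc3a, Ramp2 and Nog are near or below NB at 3d, and retinal Hmox1 is highest at 6h.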

How the data were processed

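RNA libraries of RPE (16) and retina (17) were used, and no ATAC library. STAR, Trimmomatic and edgeR with GRCm38 are named per the submitters' processing notes; versions and the read counter are not given in the sources used here. The deposited signal values are, per the file headers and the values, CPM on an effective library size computed by the authors; all were whole multiples of 1 read within 0.01 of a read (100% of values). NB libraries were matched to their group only, and their letters (A deeper, B shallower) were assigned here. Retina and RPE were normalized separately, so levels set across tissues rest on 2 scalings.

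log2(CPM + 0.5) was tested with limma 3.58.1 in R 4.3.3 (all groups of a tissue, trend, Benjamini-Hochberg over genes reaching 1 CPM in 3 or more libraries, threshold 0.05). The 0.5 understates changes of low genes. Errors of CPM are SD, of log2 differences SE. On simulated counts the limma step recovered 62% of 2-fold and 99% of 4-fold changes for RPE 3d against 6h (100 changed genes each, 16613 tested). Changes were put only into genes above a minimum mean read count, and no depth-set effect was simulated. Members and lists were chosen with earlier results of these data known. Named are the 12 members with the largest 1d difference, the 8 with the highest CPM, up to 4 of each gene list, the called members with the smallest adjusted p (5 a direction in RPE, 4 elsewhere) and those nearest a threshold; predicted genes are only counted. Smim3, Enpep and other members outside these rules were named after their values were seen. Numbers shared by 6h, 1d and 3d libraries did not pair them (correlations of deviations 0.30, 0.09 and -0.29 for RPE 6h and 3d). Libraries are separate mice, per the labels' protocols. Alternatives were other pseudocounts, no filter, TMM, library totals, edgeR 4.0.16, DESeq2 1.42.0, groups alone, a replicate block, depth set, marker terms and leaving out each library.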

Additional observations from a re-analysis of the deposited data

Results flagged for a closer look

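In groups of 4 to 6 libraries, 264 groups of the named members were examined for a library apart from the others, and 25 were found. The criterion flags about 1 in 20 of independent, normally distributed groups. Members varied together across libraries, so the count is not read against that rate. In RPE 3d library 1 stood above the other 3 for Krt12 (10744 CPM, others 2639 to 3650), Aqp5 (2530, others 873 to 1015), Ppp1r3c (97.0, others 19.6 to 25.3), Tgm2 (783, others 304 to 333), Tgfbi (423, others 175 to 200), Hspb1 (322, others 125 to 158) and Dsg1a (317, others 129 to 135). RPE 3d library 2 stood above the others for Plin2 (137, others 90.0 to 96.2), Ift57 (69.9, others 43.9 to 47.5), Trf (762, others 467 to 497), Hmox1 (33.8, others 22.3 to 23.6) and Chrnb4 (101, others 56.4 to 61.3). These are the libraries with the lowest and the highest RPE identity sum at 3d, 18184 and 32536 CPM.

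At RPE 1d, library 4 was low for Glycam1 (2.22 CPM, others 12.2 to 13.2) and high for Dcdc5 (15.8, others 7.33 to 8.65). RPE NB library A1 read 0.0410 CPM of the predicted gene Gm10800, against 2.84 to 3.64 in the other NB libraries.

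In retina the libraries apart were 3d library 4 for Plin2 (18.4 CPM), 3d library 2 for Egfl6 (1.43), 1d library 3 for Ccl9 (5.06) and Loxl4 (13.0), and 1d library 2 for Tagln (4.17). In retina NB they were B4 for Prr13 (52.5), Nog (1.07) and Gna14 (3.32), B1 for Hmox1 (2.38) and B3 for Chrnb4 (6.57).

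Among the members named by the rules, the change from 6h to 3d was called different between RPE and retina (limma, both tissues in 1 fit) for Muc3a (-1.99 on the log2 scale), Gna14 (-1.22), Ramp2 (-1.21), Chrnb4 (1.33), Lmo1 (1.33), Hmox1 (1.91), Trf (1.302) and Cdh3 (1.53). Hmox1, Chrnb4 and Ramp2 did not pass with the depth set as a term. Gna14 and Trf each lost the call when certain single libraries were left out.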

How the results depend on the processing

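The number of members was 75 as described and 32 at a threshold of 1. It ranged from 59 to 115 when 1 RPE library was left out. For RPE 3d against 6h the count of higher members (2) was 7 with DESeq2 and 0 with the depth set as a term, and the count of lower members (3) was 0 with that term. Leaving out 1 library gave 1 to 4 higher and 2 to 4 lower. The predicted gene Gm10800 reversed to -0.12 with the depth set as a term. For retina 6h against NB the lower members (4) numbered 2 in a fit of the 2 groups alone, 1 with NB of the same depth set and 2 to 5 without 1 library. For retina 3d against NB the lower members (2) numbered 1 with DESeq2 and 1 with scaling to library totals (chosen after seeing the data), and 1 to 2 without 1 library. For the tissue difference the lower members (3) numbered 5 with DESeq2, 5 in a fit of the 2 groups alone, 5 with the depth set as a term and 2 to 5 without 1 library. With a replicate block RPE 3d against 6h gave 2 higher and 2 lower members, and the tissue difference 6 and 3; Nog lost its call (adjusted p = 0.0772). No paired analysis was possible for the comparisons with NB because the NB columns carry no number of a sample.

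Of 56 calls of single named members, 36 kept their call under every alternative run. Of 3555 alternatives, 79 lost a call, 34 gained one and 1 reversed; the cause was not tested. Trf, Muc3a and Ramp2 in RPE 3d against 6h lost it only with the depth set as a term; their adjusted p reached at most 0.0962, 0.102 and 0.144. On simulated counts without a depth-set effect, 2-fold changes between RPE 6h and 3d were recovered in 62% of the changed genes. These were genes above a minimum mean read count, and smaller changes were not simulated.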
